A study of Drosophila melanogaster with 12 samples.

Results

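The question here was whether a week alone changes gene expression differently in the heads of female and male flies. The comparison was the change from isolation in females minus the change from isolation in males, computed from all 12 libraries of the series, and it was tested for 9810 of the 17856 gene rows of the deposited count table, those with enough reads in the groups. Every fly was an adult of the ORE-R wild-type stock of Drosophila melanogaster, with no transgene or mutation named, and had spent its first 3 to 5 days with flies of both sexes. The 4 groups were isolated females (7 days alone), group-housed females (7 days with females only, 25 to a group), isolated males (7 days alone) and group-housed males (7 days with males only, 25 to a group). Each group had 3 libraries, and each library was polyA RNA from 200 pooled whole heads. Replicate 0 of every group carries the label batch 1, and replicates 1 and 2 carry batch 2. Whether the 3 pools of a group were reared apart is not stated, and the p-values reflect only how far these pools differ, part of which may be technical.

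A whole fly head holds brain, eyes, muscle, cuticle and a layer of fat body, the insect counterpart of liver and adipose tissue. The head fat body secretes storage, yolk and carrier proteins, handles lipids, purines and foreign compounds, and releases antimicrobial peptides under the control of the Toll and Imd immune pathways. It also differs between the sexes: takeout (symbol to), which encodes a secreted member of the juvenile hormone binding family with roles in feeding and courtship, is known as a male-enriched product of this tissue, while yolk proteins are made in females.

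Total counts ran from 2584050 to 17122099 per library. Isolated females of batch 2 were the shallowest, at 2584050 and 3224485 counts, and had the lowest scaling factors, 0.86 and 0.895, against 0.903 to 1.14 in the others. The column of isolated male replicate 1 is marked as merged and was used as 1 library. The defining markers of neurons (elav, nSyb, Syt1), photoreceptors (ninaE, norpA, trp) and glia (repo, moody, Eaat1) were present in every library, with no marker below 85.4 CPM, and 0 of these 9 passed the test of the difference between the sexes. In bulk heads, fewer cells of a type and less RNA per cell cannot be told apart.

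Isolation raised a set of genes in female heads that it did not raise to the same degree in male heads. The difference between the female and the male response passed an adjusted p of 0.05 (edgeR quasi-likelihood test, Benjamini-Hochberg) for 45 genes, 0.459% of those tested. In 44 of them females rose more, which is 0.449% of the genes tested, and in 1 gene, CG11211, the difference had the other sign, 0.0102%. All 45 passed in the comparison of isolated with group-housed females, and none of the 45 passed in the comparison of isolated with group-housed males. Among the 45 there was therefore no gene called in males alone and none called in both sexes with opposite signs. At an unadjusted p under 0.05 the difference held for 720 genes (7.34%), 472 with a positive female minus male difference and 248 with a negative one, whichever sex changed more.

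**Figure D1:**
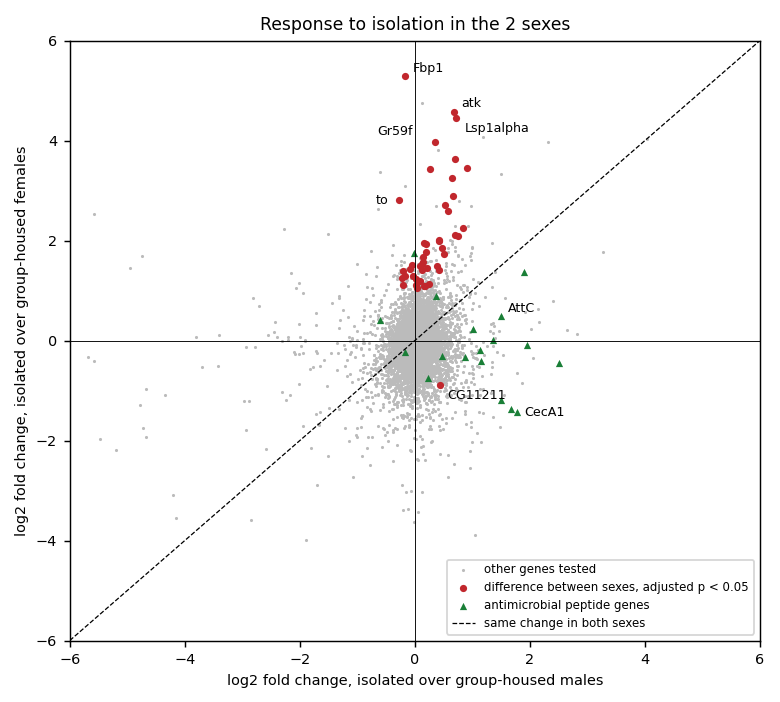
Log2 fold change of each tested gene in females (vertical axis, isolated over group-housed) against that in males (horizontal axis, isolated over group-housed), with the 45 genes that differed between the sexes in red, antimicrobial peptide genes as green triangles and the dashed line marking an equal change; 7 genes lie outside the axes. The red points stand above the dashed line near a male change of 0, except CG11211 below it, and most green triangles lie to the right of 0 and below the line.

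Among the 44 the median change was 1.71 in females and 0.19 in males on the log2 scale, and their difference ran from 0.88 to 5.47 with a median of 1.47; over all genes tested the median difference was -0.0029. A male change that misses the threshold is not a male change of 0. The male log2 fold change was above 0 in 35 of the 44 and its 95% interval lay wholly above 0 in 17, so for these the female rise was larger rather than the sole one. For 27 the male interval spanned 0, and for 23 it stayed within a 1.5-fold change in either direction. The lowest isolated female library exceeded the highest group-housed one in 44 of 44 (9.59% of all genes), and the male libraries separated in the same direction in 13 (3.17% of all genes); the same libraries chose the 44, so these counts only describe them. All 45 kept their sign in batch 1, which has 1 library per group, and in batch 2, with median differences of 1.58 and 1.38 among the 44.

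**Figure D2:**
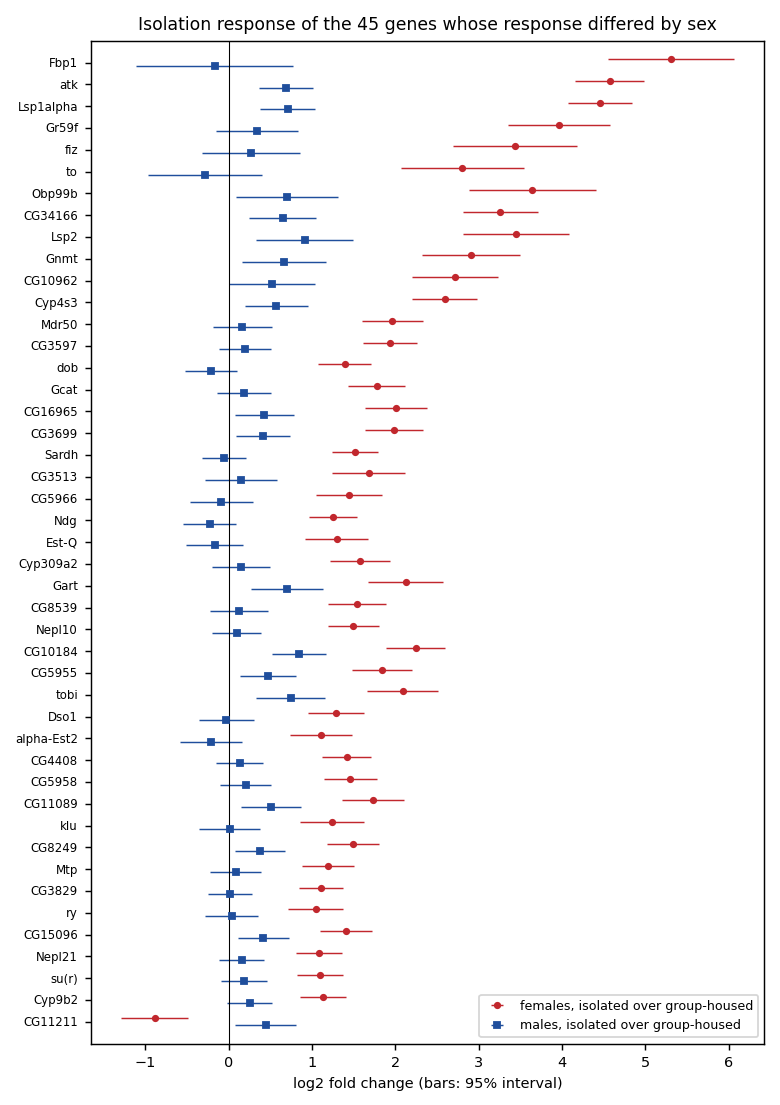
Log2 fold change under isolation with its 95% interval in females (red circles) and males (blue squares) for the 45 genes, ordered by the difference between the sexes. The female intervals of 44 genes lie above 0 and those of CG11211 below it, while the male intervals of 27 of the 44 span 0.

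The females carried a wider response than these 45. Isolation raised 341 genes in females (3.48%) and lowered 23 (0.234%), together 3.71%. In males it raised 2 (0.0204%) and lowered 6 (0.0612%), together 0.0815%, and 267 genes reached an unadjusted p under 0.05 (2.72%). Of the 341, 297 had no call for a difference between the sexes, and in 41 of those 297 the male 95% interval also lay above 0. The male interval stayed within 1.5-fold for 200 of the 341.  The count of 45 rose to 84 without group-housed female replicate 2 and fell to 11 when isolated females were represented by replicate 0 alone. The 364 female calls fell to 158, 199 and 209 without group-housed female replicate 0, isolated female replicate 0 and isolated female replicate 1. The 8 male calls fell to 1 without isolated male replicate 0 and 2 without group-housed male replicate 0, and numbered 15 to 20 without isolated female replicate 2, group-housed female replicate 1 or 2, isolated male replicate 1 or group-housed male replicate 1.

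The storage protein genes Lsp1alpha and Lsp2 and the receptor gene Fbp1 rose far more in females, and Fbp1 had the largest difference of the 45. Fbp1 (FBgn0000639), the fat body receptor for larval serum proteins, stood at 633.7, 670.4 and 499.5 CPM in isolated females and at 29.9, 8.57 and 10.1 CPM in group-housed females. In isolated males it stood at 4.29, 2.23 and 4.74 CPM, and in group-housed males at 4.86, 4.99 and 2.16 CPM. The isolated female libraries stood far above the other 9, and the 2 male groups overlapped. Its log2 fold change was 5.30 in females (SE 0.35) and -0.17 in males (95% interval -1.11 to 0.77), a difference of 5.47 (SE 0.54, edgeR adjusted p = 0.000346).

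Lsp1alpha (FBgn0002562), a subunit of the hexameric storage protein of the larval blood, had 2001, 1549 and 1271 CPM in isolated females and 95.9, 60.4 and 64.6 CPM in group-housed females. Isolated males had 701.3, 491.5 and 417.5 CPM, and group-housed males 375.6, 265.7 and 327.1 CPM. Neither pair of groups overlapped, so both sexes were higher alone, with group-housed females lowest of all. The log2 fold change was 4.46 in females and 0.71 in males (95% interval 0.38 to 1.04), a difference of 3.75 (SE 0.23, edgeR adjusted p = 1.57e-07). Lsp2 (FBgn0002565), another storage protein, had 4613, 4922 and 4365 CPM in isolated females against 864.3, 306.7 and 260.1 CPM in group-housed females. It had 1292, 1191 and 1070 CPM in isolated males against 878, 589.1 and 490 CPM in group-housed males, again without overlap in either sex. The difference was 2.54 (SE 0.39, edgeR adjusted p = 0.00423).

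Of 4 tested genes on the list of larval serum proteins and their receptor, 3 passed, with a median difference of 3.14 against -0.0029 over all genes. The fourth, Lsp1beta, had a difference of 0.76 (SE 0.31, edgeR adjusted p = 0.566). All 6 genes on the list summed to 16300 to 18400 CPM of library totals in isolated females and 7670 to 10600 in group-housed females. In males they summed to 5350 to 6660 alone and 4890 to 6260 in groups. In group-housed females the 3 genes that passed made up a small part of that list sum. The sum of the fat body markers apolpp, Apoltp and Lsp2 was also highest in isolated females, but Lsp2 is itself a called gene of this list. The sum was 20300 to 23300 CPM (TMM-scaled) in isolated females and 8080 to 11900 in group-housed females. In males it was 7430 to 9480 alone and 7310 to 9110 in groups. Without Lsp2 the carrier proteins apolpp and Apoltp had differences of 1.00 (SE 0.33) and 1.13 (SE 0.29), and neither passed (edgeR adjusted p = 0.35 and 0.119). None of these markers was at 0 in any library, and the part of fat body amount in the result was not tested.

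Several secreted and chemosensory genes were low in group-housed females and reached or approached male levels in isolated females. takeout (to, FBgn0039298) had 595.2, 891.5 and 661.6 CPM in isolated females against 156.3, 53.3 and 104.5 CPM in group-housed females. In males it had 518.1, 555.5 and 413.6 CPM alone and 579.6, 786.4 and 433.1 CPM in groups, and the male groups overlapped. Its difference of 3.08 (SE 0.46, edgeR adjusted p = 0.00636) became 3.12 with an adjusted p of 0.07 without group-housed female replicate 2. CG11854, a takeout family member, had 82.5, 78.8 and 48.1 CPM in isolated females and 12.5, 0.843 and 0.828 CPM in group-housed females, but its difference of 3.41 (SE 0.78) had an edgeR adjusted p of 0.145. Of 21 tested members of the takeout family, takeout alone passed in edgeR, and the family's median difference was -0.0031. CG11854 passed in DESeq2 and limma-voom (adjusted p = 0.0109 and 0.0282). At an unadjusted p under 0.05, 5 of the 21 were positive and 0 negative, against 472 and 248 of 9810 over all genes.

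atk (FBgn0036995), which encodes a secreted leucine-rich repeat protein of sensory organs, was the most uniform of the group. It had 120.5, 117.1 and 142.4 CPM in isolated females and 5.11, 5.76 and 4.97 CPM in group-housed females. Males had 192.9, 177.8 and 239.7 CPM alone and 118.9, 153.4 and 105.8 CPM in groups. Groups did not overlap within either sex, and group-housed females stood more than an order of magnitude under every other library. The difference was 3.88 (SE 0.24, edgeR adjusted p = 1.57e-07). CG5955, whose nearest end lies 2082 bases from atk on arm 3L in the BDGP6.54 annotation, differed by 1.37 (SE 0.23, edgeR adjusted p = 0.00656), which became 0.0508 without isolated female replicate 0 and 0.0581 without isolated male replicate 0.

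The gustatory receptor gene Gr59f had 49.9, 17.1 and 23.6 CPM in isolated females against 3.07, 1.55 and 0.828 CPM in group-housed females. In males the groups overlapped, at 26.1, 18.1 and 15.8 CPM alone and 21.9, 11 and 15.1 CPM in groups, and the difference was 3.62 (SE 0.37, edgeR adjusted p = 0.000109). The odorant binding protein gene Obp99b had 93, 53.1 and 52 CPM in isolated females against 8.89, 4.92 and 1.03 CPM in group-housed females, with a difference of 2.94 (SE 0.45, edgeR adjusted p = 0.00636). Its male change was smaller but above 0, a log2 fold change of 0.70 (95% interval 0.09 to 1.31). In edgeR 1 of 55 tested chemoreceptor genes and 1 of 30 tested odorant binding protein genes passed, and the medians of the 2 families were -0.26 and -0.26. At an unadjusted p under 0.05, 1 chemoreceptor gene was positive and 3 were negative. Among odorant binding protein genes 4 were positive and 3 negative, against 472 and 248 of 9810 over all genes. Obp99c differed by 1.07 (edgeR adjusted p = 0.0602) and passed in DESeq2 and limma-voom (adjusted p = 0.00339 and 0.0365). fiz, an oxidoreductase gene of the glucose-methanol-choline family, differed by 3.17 (SE 0.44, edgeR adjusted p = 0.00176), with 28.7, 14 and 19.4 CPM in isolated females against 3.63, 0.703 and 1.24 CPM in group-housed females and overlapping male groups.

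Gnmt, Sardh and Gcat, enzymes that handle methyl groups and glycine, rose more in females. Gnmt (FBgn0038074), glycine N-methyltransferase, spends S-adenosylmethionine to make sarcosine, and Sardh (FBgn0034276), sarcosine dehydrogenase, turns sarcosine back to glycine. Gnmt had 63.8, 75.2 and 58.9 CPM in isolated females against 13.3, 6.46 and 4.55 CPM in group-housed females, and 93.8, 120.6 and 96.9 CPM in isolated males against 59.7, 65.4 and 71.5 CPM in group-housed males. Isolated libraries were higher in both sexes without overlap, and the difference was 2.23 (SE 0.36, edgeR adjusted p = 0.00636). Sardh had 273.1, 340.8 and 338.1 CPM in isolated females against 76.8, 134 and 132.2 CPM in group-housed females. Its male libraries overlapped, at 105.9, 153.6 and 160.1 CPM alone and 114.1, 163.2 and 156.7 CPM in groups, with a male log2 fold change of -0.06 (95% interval -0.32 to 0.21). The difference for Sardh was 1.57 (SE 0.18, edgeR adjusted p = 0.000346). Gcat, glycine C-acetyltransferase, differed by 1.59 (SE 0.22, edgeR adjusted p = 0.00171). On the list of methionine cycle and methyl group genes, which does not hold Gcat, 2 of 13 passed (Gnmt and Sardh). The difference was above 0 in 8 of 13, against 4864 of 9810 over all genes, and the list's median was 0.13. MsrA, a methionine sulfoxide reductase on that list, had a difference of -0.87 (SE 0.20, edgeR adjusted p = 0.0799).

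Some purine genes rose more in females as well. Gart (FBgn0000053), a trifunctional enzyme of purine synthesis, had 816.9, 633 and 724.3 CPM in isolated females against 136, 187.7 and 182.1 CPM in group-housed females. Males had 532.1, 576.7 and 611.6 CPM alone and 305.8, 487.1 and 263.9 CPM in groups. Both sexes were higher alone, and the difference was 1.42 (SE 0.29, edgeR adjusted p = 0.037). ry, the xanthine dehydrogenase that makes urate from purines, had 175.9, 161.6 and 160.7 CPM in isolated females against 72, 84 and 87.9 CPM in group-housed females, with overlapping male groups and a difference of 1.01 (SE 0.21, edgeR adjusted p = 0.0497). CG11089, listed with the synonym atic and so named for the enzyme of the last steps of purine synthesis, differed by 1.22 (SE 0.24, edgeR adjusted p = 0.0307). On the purine list, which does not hold CG11089, 2 of 13 tested genes passed with a positive difference, against 44 of 9810 over all genes. At an unadjusted p under 0.05, 7 of the 13 were positive, against 472 of 9810, and the list's median was 0.59. With library totals alone 5 were positive and 2 negative. Pfas, AdSL and Paics, further enzymes of the synthesis route, had differences of 0.99, 1.05 and 0.86 with edgeR adjusted p of 0.0823, 0.133 and 0.276. When 1 library was left out, Gart and CG11089 kept their call only without replicate 1 or 2 of the group-housed females or replicate 2 of the group-housed males, and ry only without replicate 2 of either group-housed sex. Without group-housed female replicate 0 the adjusted p was 0.203 for Gart, 0.166 for CG11089 and 0.226 for ry.

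**Figure D3:**
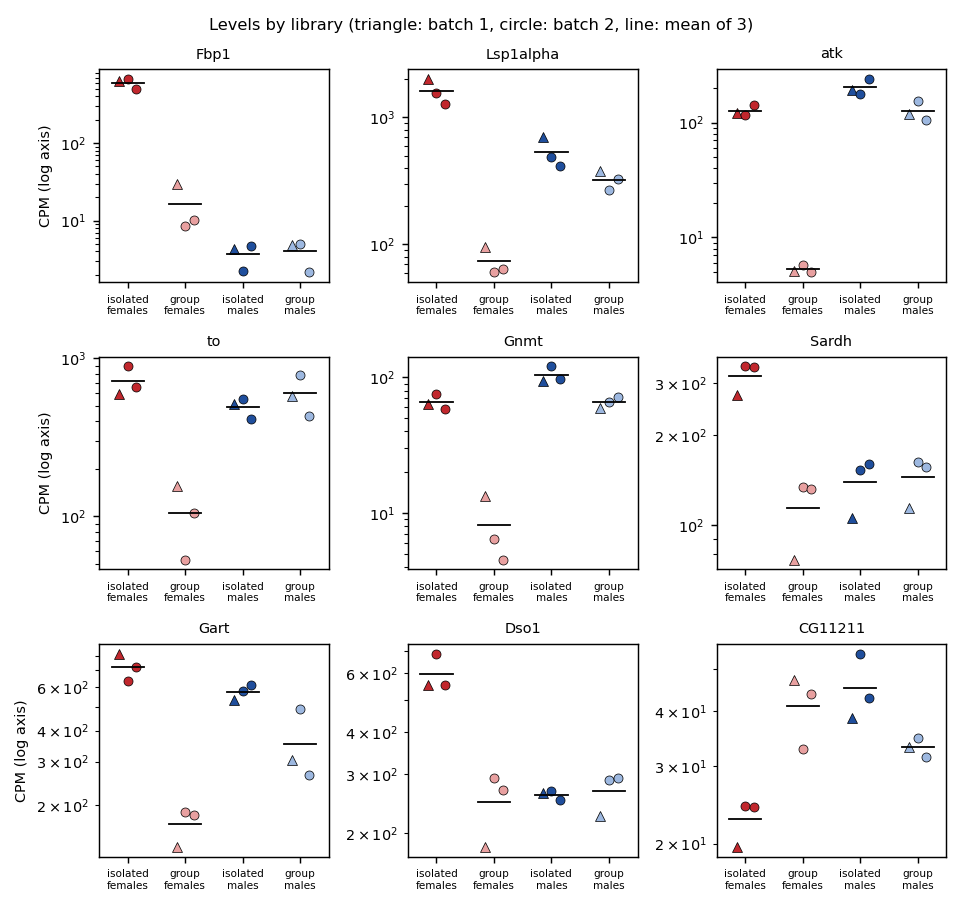
CPM on log axes by library for 9 of the genes that differed, with isolated females, group-housed females, isolated males and group-housed males from left to right, triangles for batch 1, circles for batch 2 and lines at the mean of 3 libraries. For the first 8 genes the group-housed females stand below the isolated females, while for CG11211 the isolated females stand lowest.

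Single detoxification, lipid and sugar genes also differed. Among cytochrome P450 genes, which oxidise foreign and endogenous compounds, Cyp4s3, Cyp309a2 and Cyp9b2 differed by 2.02 (SE 0.25), 1.43 (SE 0.24) and 0.88 (SE 0.18), so that 3 of 73 tested passed and 17 were positive at an unadjusted p under 0.05 with none negative. The family median was 0.15, and -0.10 when libraries were scaled by their totals alone, a scaling that moved the median of all genes to -0.26. Under that scaling 8 of the 73 were positive and 5 negative at an unadjusted p under 0.05. Cyp4s3 had 86.5, 90.5 and 64.4 CPM in isolated females against 15.2, 11.4 and 13.2 CPM in group-housed females, and 22, 24.7 and 26.6 CPM in isolated males against 18.5, 16.6 and 14.1 CPM in group-housed males. It was higher alone in both sexes, with a male 95% interval of 0.19 to 0.95. Mdr50, an ABC efflux transporter, differed by 1.80 (SE 0.24), and the carboxylesterase genes Est-Q and alpha-Est2 differed by 1.46 (SE 0.24) and 1.31 (SE 0.25). Of 50 tested glutathione and UDP transferase genes, which conjugate such compounds, 0 passed in edgeR and the median was 0.05. At an unadjusted p under 0.05, 4 of the 50 were positive and 1 negative. Over all genes, the background for these counts and for the 17 P450 genes, 472 of 9810 were positive and 248 negative. Cyp9b2 lost its call in 9 of 12 fits without 1 library (adjusted p up to 0.179, without isolated male replicate 0) and alpha-Est2 in 6 (up to 0.127, without group-housed female replicate 0). Est-Q lost it in 1, with an adjusted p of 0.0572 without isolated male replicate 0.

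For lipids, Mtp, the microsomal protein that loads lipid onto lipoproteins, had 480.6, 419.2 and 358.5 CPM in isolated females against 182.4, 176.5 and 190.8 CPM in group-housed females. Its male groups overlapped, at 246.9, 230.2 and 208.3 CPM alone and 223.1, 242.6 and 180.0 CPM in groups. The difference was 1.10 (SE 0.21, edgeR adjusted p = 0.0182). dob, a relative of the brummer triglyceride lipase, differed by 1.60 (SE 0.21, edgeR adjusted p = 0.000996), with a male log2 fold change of -0.21 (95% interval -0.52 to 0.10). Mtp was the 1 of 13 lipoprotein genes that passed. None passed on the other lipid lists, which do not hold dob. These were 0 of 20 genes of lipolysis and fatty acid oxidation and 0 of 20 of fatty acid and triglyceride synthesis. Their medians were 0.39 and 0.36. At an unadjusted p under 0.05, 6 and 5 were positive, against 472 of 9810 over all genes. With library totals alone 1 and 2 were positive, and 1 synthesis gene was negative. tobi, an insulin-dependent alpha-glucosidase, had 1109, 696.1 and 747.2 CPM in isolated females against 224.3, 228.5 and 134.7 CPM in group-housed females, and differed by 1.35 (SE 0.28, edgeR adjusted p = 0.037). It was the 1 of 24 tested amylase, maltase and sugar genes that passed, and that list's median was 0.25. Mtp kept its call without group-housed female replicate 1 or 2, isolated female replicate 2, isolated male replicate 1 or group-housed male replicate 2, and tobi only without group-housed female replicate 1 or 2 or isolated male replicate 1. Leaving out group-housed female replicate 0 gave an adjusted p of 0.119 for Mtp and 0.233 for tobi.

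The immune effector Dso1 (Daisho 1), a peptide made under Toll signalling, had 551.5, 686.6 and 552.9 CPM in isolated females against 181.5, 292 and 268 CPM in group-housed females. Male groups overlapped, at 262.9, 266.2 and 250.1 CPM alone and 224.3, 286.8 and 291 CPM in groups, and the difference was 1.32 (SE 0.22, edgeR adjusted p = 0.00636). It was the 1 of 17 tested Bomanin and Daisho genes that passed, and Dso2 had a difference of 1.59 (SE 0.41, edgeR adjusted p = 0.124). Ndg, the basement membrane protein nidogen, had 212.9, 212.5 and 185 CPM in isolated females against 83.2, 91 and 82.1 CPM in group-housed females, and 14.6 to 22.2 CPM across all male libraries. The difference for Ndg was 1.48 (SE 0.20, edgeR adjusted p = 0.00165). The zinc finger transcription factor gene klu, the neprilysin-like peptidase genes Nepl10 and Nepl21, and su(r), whose enzyme begins pyrimidine breakdown, differed by 1.22, 1.40, 0.93 and 0.91. klu, Nepl21 and su(r) lost their call in 10, 8 and 8 of 12 fits without 1 library, with adjusted p up to 0.215, 0.16 and 0.19, all without group-housed female replicate 0.

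Of the 45 genes 17 are known by CG numbers, and 16 of these had the larger rise in females, with differences between 0.99 (CG15096) and 2.61 (CG34166). CG34166 had 180.9, 160.3 and 128.5 CPM in isolated females against 20.8, 11.1 and 16.6 CPM in group-housed females, and 64.9, 73.1 and 70.1 CPM in isolated males against 37.1, 44.1 and 51.8 CPM in group-housed males. Of the 44 genes, CG10184 came nearest to a male call, with log2 fold changes of 2.25 in females and 0.85 in males (male SE 0.15, male edgeR adjusted p = 0.0507). CG15096 lost its call without any 1 of 8 libraries, CG3513 of 6 and CG8249 of 4, with adjusted p up to 0.206, 0.149 and 0.131; leaving out replicate 0 of either female group ended all 3. The 45 genes lay on all the large chromosome arms, 8 on X, 8 on 2L, 11 on 2R, 8 on 3L and 10 on 3R. In the BDGP6.54 annotation 12 of them share exon sequence with a gene on the other strand, among them atk, Lsp2, Gnmt, Gart, Cyp4s3, Ndg, tobi and alpha-Est2, and 3 with one on the same strand, atk, CG11089 and CG10962. CG11854, apolpp, Pfas, AttC and DptB also have such a partner. The sources used here do not give the strand setting of the counting, so reads of partners cannot be told apart.

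Set out by sex within each housing, the same values show where these genes stood. In isolation, 28 of the 44 were higher in females than in males by test, 1 was higher in males and 15 had no call. In groups, 3 were higher in females, 20 were higher in males and 21 had no call. The 20 genes higher in group-housed males divided into 15 with no call in isolation, 4 higher in isolated females (Lsp1alpha, CG34166, Gcat and Cyp309a2) and 1 still higher in isolated males, atk. The 21 genes with no call in groups were all higher in isolated females, and Fbp1, Ndg and alpha-Est2 were higher in females in both settings. The median female over male log2 difference was 0.89 in isolation and -0.54 in groups. The shares of all genes called between the sexes in either housing are not given here, so these counts only describe the 44. They come from the same 12 libraries as the test of the difference, arranged another way, and add no evidence to it.

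**Figure D4:**
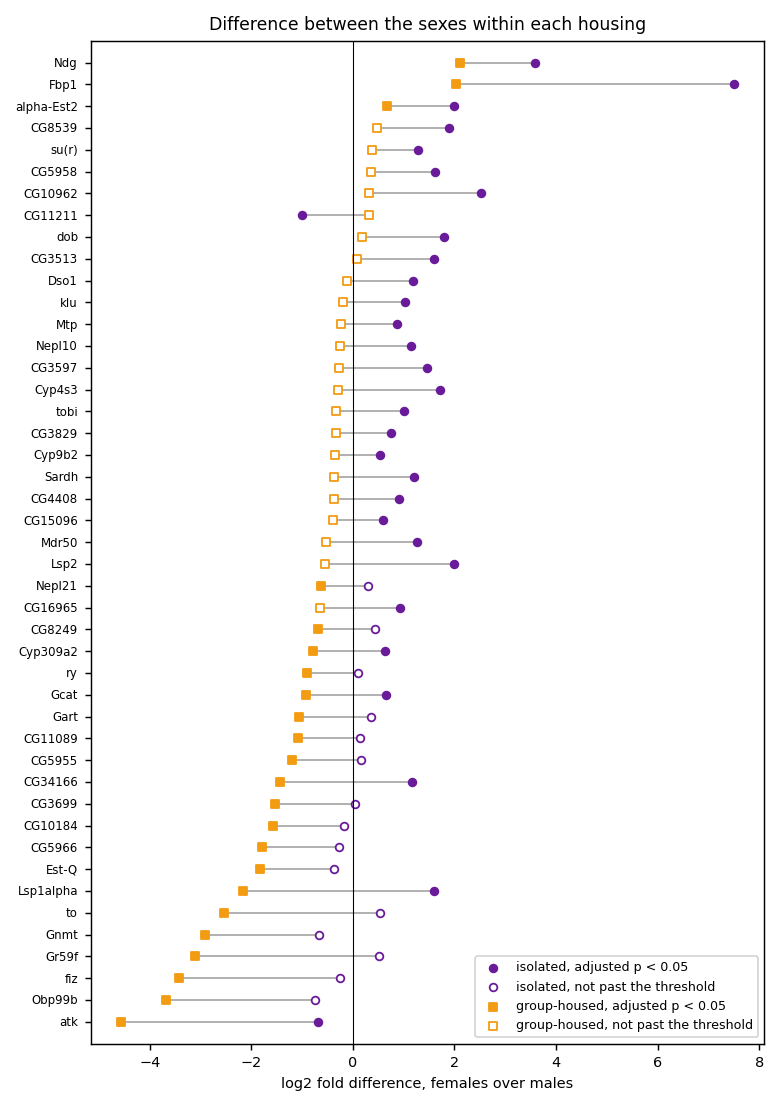
Log2 fold difference of females over males in isolation (purple circles) and in groups (orange squares) for the 45 genes, with filled symbols for an adjusted p under 0.05, ordered by the value in groups. For 44 genes the isolated value lies to the right of the group-housed one, and CG11211 moves the other way.

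Opposite responses were rare. At an unadjusted p under 0.05 in both sexes, 97 genes had the same sign (0.989% of those tested), 81 higher and 16 lower, and 10 had opposite signs (0.102%). All 10 were lower in isolated females and higher in isolated males, and 0 were the other way round. They were CG40485, CG42807, CG11211, CG7829, ea, CG4115, Or1a, CecA1, NHP2 and Tep1. Only CG11211 passed the test of the difference. It had 19.7, 24.3 and 24.2 CPM in isolated females against 47, 32.9 and 43.7 CPM in group-housed females, and 38.5, 54.1 and 42.8 CPM in isolated males against 33.2, 34.8 and 31.5 CPM in group-housed males. Isolated libraries were lower in females and higher in males, with no overlap in either sex. CG11211 fell by 0.89 on the log2 scale in females (SE 0.19, edgeR adjusted p = 0.0119), and in males the change was 0.45 (95% interval 0.08 to 0.81, edgeR adjusted p = 1). The difference of -1.33 (SE 0.26, edgeR adjusted p = 0.0242) kept its call without group-housed female replicate 1 or 2 or isolated male replicate 0 or 2 and lost it without each of the other 8 libraries, with an adjusted p of 0.16 without group-housed female replicate 0.

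Next among the opposite-sign genes by size of test, CG42807 had 44.6, 22.1 and 19.4 CPM in isolated females against 94.1, 28.4 and 30.6 CPM in group-housed females, and 14.6, 16.4 and 9.87 CPM in isolated males against 9.13, 6.32 and 6.22 CPM in group-housed males. The female groups overlapped and the male groups did not, and the difference was -1.76 (SE 0.41, edgeR adjusted p = 0.0803). Tep1, a complement-like thioester protein of the immune system, had 32.3, 10.4 and 7.97 CPM in isolated females against 63.1, 15.3 and 9.72 CPM in group-housed females, with the batch 1 library high in each. It had 8.19, 5.88 and 5.33 CPM in isolated males against 5.05, 2 and 1.78 CPM in group-housed males, and the difference was -2.01 (SE 0.48, edgeR adjusted p = 0.0922). The protease gene ea, the odorant receptor gene Or1a and the other candidates had edgeR adjusted p between 0.0932 and 0.323.

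Genes for antimicrobial peptides, which kill bacteria and fungi and are secreted by the fat body, leaned towards males, though none of 18 tested passed the test of the difference or either single-sex comparison. At an unadjusted p under 0.05, the female minus male difference was negative for 10 of the 18 and positive for 1, Drs; over all genes it was negative for 248 and positive for 472 of 9810. The list's median was -1.10 for the difference, with medians of -0.21 in females and 1.14 in males. AttC, an attacin, had 332.5, 410.2 and 384.9 CPM in isolated females against 282, 284.9 and 218.7 CPM in group-housed females. It had 80.8, 169.1 and 174.5 CPM in isolated males against 39.3, 77.2 and 31 CPM in group-housed males. Isolated libraries were higher in both sexes without overlap, with a log2 fold change of 0.49 in females (SE 0.29) and a 95% interval of 0.86 to 2.14 in males. The difference was -1.01 (SE 0.41, edgeR adjusted p = 0.584).

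DptB, a diptericin, had 66.5, 88.2 and 112.9 CPM in isolated females against 91.1, 88.5 and 71.4 CPM in group-housed females, and 13.5, 41.6 and 26.1 CPM in isolated males against 5.96, 16.6 and 9.9 CPM in group-housed males. Both sexes overlapped between housings, and the difference was -1.35 (SE 0.44, edgeR adjusted p = 0.348). CecA1, a cecropin, had 1.95, 8.55 and 2.08 CPM in isolated females against 13.5, 5.62 and 9.72 CPM in group-housed females, and 0.919, 4.77 and 1.97 CPM in isolated males against 0.842, 0.832 and 0.381 CPM in group-housed males. Its female libraries overlapped while its male libraries did not, and the difference was -3.21 (SE 0.96, edgeR adjusted p = 0.249). Drs (drosomycin) had 29.6, 19.8 and 26 CPM in isolated females against 11.8, 2.53 and 8.69 CPM in group-housed females, with overlapping male groups and a difference of 1.76 (SE 0.70, edgeR adjusted p = 0.546). Between the sexes in groups, 10 of the 18 were higher in females by test and none in males. By the same test 15 of 83 cytosolic ribosomal protein genes were higher in females and 0 in males. The share over all genes is not given for that comparison, so both counts only describe their own lists. The 10 negative differences at an unadjusted p under 0.05 fell to 4 without group-housed female replicate 0 and 4 without isolated male replicate 1. They fell to 5 without group-housed male replicate 0.

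**Figure D5:**
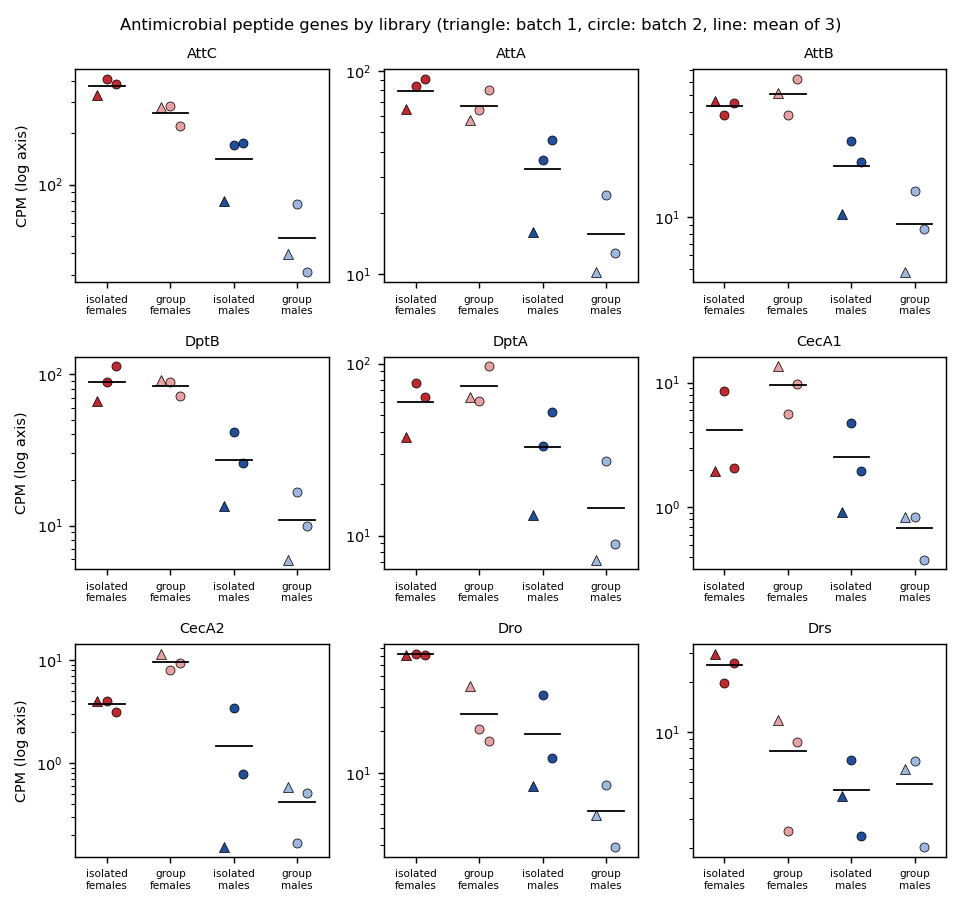
CPM on log axes by library for 9 antimicrobial peptide genes, with isolated females, group-housed females, isolated males and group-housed males from left to right, triangles for batch 1, circles for batch 2 and lines at the mean of 3 libraries. Group-housed males have the lowest mean for all genes shown but Drs, and isolated males of batch 1 are low among the isolated males for every gene but Drs.

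None of the genes called in males passed the edgeR test of the difference between the sexes. Of the 8 male calls, Cyp6a8 (a cytochrome P450) and CG10621 rose, with log2 fold changes of 0.63 and 1.69 in females beside 0.85 (SE 0.15) and 0.95 (SE 0.13) in males. Both were also called in females, and the differences were -0.21 (edgeR adjusted p = 0.908) and 0.74 (edgeR adjusted p = 0.101). The other 6 fell: the mucin gene Muc68D, CG14125, CG34324, CG31948, and S-Lap2 and loopin-1, whose proteins belong to the sperm leucyl aminopeptidases. Muc68D had 0.306, 0 and 0 CPM in isolated males against 55.8, 56.9 and 5.2 CPM in group-housed males, and 0 to 1.04 CPM in all female libraries. With females near 0 in both housings a female response could not be measured for these 6, and the differences, between 2.75 and 10.1, had adjusted p of 0.101 to 0.906 in edgeR. The other tools called some of the 8. In DESeq2 the difference passed for Muc68D, CG34324 and CG10621 (adjusted p = 2.02e-05, 1.53e-05 and 0.00774). In limma-voom it passed for CG14125 and CG31948 (adjusted p = 0.00266 and 0.0391), for which DESeq2 gave no adjusted p. None of the 8 passed in both tools. S-Lap2 and loopin-1 were highest in group-housed male replicate 0, at 38.4 and 52.4 CPM against 3.33 to 4.82 CPM in the other group-housed male libraries. Both stand on the list of male germline and accessory gland genes, of which 0 of 12 tested passed the difference in edgeR. At an unadjusted p under 0.05, 2 of the 12 were positive, against 472 of 9810 over all genes. That list's median difference was 2.07, with medians of -0.07 in females and -2.17 in males. At an unadjusted p under 0.05, 8 of the 12 were lower in isolated males, against 267 of 9810 genes changed in either direction. On that list S-Lap1, S-Lap3, S-Lap7 and betaTub85D also had their highest value in group-housed male replicate 0, at 67.1, 49.3, 34 and 34 CPM. The male calls numbered 2 without that library.

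Of 38 lists of functions and cell types, 27 held no gene that passed. Besides the antimicrobial peptide, transferase and male germline lists already given, these included synaptic and neuronal genes (0 of 30, median 0.15), phototransduction (0 of 30, median 0.01), circadian clock genes (0 of 17, median 0.09), insulin signalling (0 of 23, median 0.05), monoamine receptors (0 of 17, median 0.03), neuropeptide precursors (0 of 31, median -0.14) and mitochondrial respiratory chain genes (0 of 65, median -0.08). In synaptic, phototransduction, clock, insulin, monoamine receptor and respiratory chain genes no member reached even an unadjusted p under 0.05, and among neuropeptide precursors 2 did, CCHa1 and Capa, both with negative differences. The list of FOXO and fasting targets, not described above, held 2 genes that passed among 15 tested, Gnmt and tobi, with a median of 0.11. Of the 45 genes, 16 stood on a list and 29 on none.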

How the data were processed

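The authors deposited 1 table of whole-number read counts per feature for 12 libraries, not normalised. The submitters' processing notes name HTSeq 2.0.5, STAR 2.7.10b, edgeR 4.4.1 with R 4.4.0, and Picard 2.27.5. The sources used here do not give the genome build, annotation or strand setting (not stated in labels or header). Lines that name no gene held 10.2% to 13.2% of each column and were left out.

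The tests used edgeR 4.0.16 (R 4.3.3), with limma 3.58.1 and DESeq2 1.42.0 for alternatives. Gene rows were kept by filterByExpr (minimum count 10, minimum total 15) and scaled by TMM. A robust quasi-likelihood model with 4 group means and batch, with 7 residual degrees of freedom, was fitted to all libraries. Contrasts were tested with glmQLFTest and adjusted by Benjamini-Hochberg over 9810 genes at 0.05. The SE is the log2 change over the square root of F. CPM of genes and the marker sums are TMM-scaled. The edgeR fit was tested on simulated data first. Every replicate pair differed by more than counting noise (lowest chi-square over its degrees of freedom 4.55), so each library counted as 1 replicate. Of the tested identifiers 9801 matched BDGP6.54.

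The comparison, its 38 lists and the genes named were chosen with earlier results of these data known. The naming rule took takeout; all genes that passed; the 10 negative differences with the smallest p; the 10 opposite-sign genes with the smallest larger p of the sexes (both with mean log2 CPM of at least 1); and, per list, the 3 members of smallest p. Genes outside it, named after their values were seen, were CG11854, Pfas, AdSL, Paics, Yp1, Col4a1, apolpp, Apoltp, Lsp1beta, Dso2, Obp99c, S-Lap3, S-Lap7, most antimicrobial peptides and the male calls. List entries were also edited after values had been seen: 2 entries that a synonym had matched to a wrong gene were removed, 2 were respelled, and entries with no match were dropped.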

Additional observations from a re-analysis of the deposited data

Results flagged for a closer look

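The response to isolation differed between females and males by the edgeR test of the difference itself for 45 genes. Each value is the female minus the male log2 change. Of these differences, storage protein and receptor genes had 5.472 for Fbp1, 3.746 for Lsp1alpha and 2.537 for Lsp2. Secreted, chemosensory and oxidoreductase genes gave 3.88 for atk, 3.623 for Gr59f, 3.166 for fiz, 3.082 for to and 2.941 for Obp99b. Methyl group, glycine, purine and pyrimidine genes gave 2.235 for Gnmt, 1.589 for Gcat, 1.568 for Sardh, 1.416 for Gart, 1.224 for CG11089, 1.005 for ry and 0.9129 for su(r). Detoxification genes gave 2.019 for Cyp4s3, 1.796 for Mdr50, 1.463 for Est-Q, 1.432 for Cyp309a2, 1.311 for alpha-Est2 and 0.8783 for Cyp9b2. Lipid and sugar genes gave 1.604 for dob, 1.346 for tobi and 1.105 for Mtp. The peptidase, basement membrane, immune and zinc finger genes gave 1.476 for Ndg, 1.401 for Nepl10, 1.316 for Dso1, 1.222 for klu and 0.9255 for Nepl21. CG-numbered genes with larger values gave 2.613 for CG34166, 2.196 for CG10962, 1.735 for CG3597, 1.578 for CG16965, 1.57 for CG3699, 1.531 for CG3513, 1.525 for CG5966 and 1.416 for CG8539. Those with smaller values gave 1.399 for CG10184, 1.368 for CG5955, 1.281 for CG4408, 1.257 for CG5958, 1.109 for CG8249, 1.092 for CG3829 and 0.9891 for CG15096. CG11211 was the single gene with a negative difference, -1.332. All 45 were also called by DESeq2 and by limma-voom, and 28 stayed called without any 1 library.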

How the results depend on the processing

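The 45 differences between the sexes became 15 with library totals alone (44 genes stayed above 0), 83 with no low-count filter, 142 with DESeq2, 76 with limma-voom, 28 with no batch term, 71 with the replicate block, 12 in batch 2 alone and 11 with isolated females by replicate 0 alone. Without 1 library they ranged from 33 to 84. The 364 female calls became 169 with library totals alone, 169 with batch by housing, 92 in batch 2 alone and 94 with isolated females by replicate 0 alone, and ranged from 158 to 481 without 1 library. The 8 male calls became 98 with no filter, 27 with DESeq2, 5 with no batch term, 0 in batch 2 alone (edgeR; 180 genes at an unadjusted p under 0.05) and 17 with isolated females by replicate 0 alone, and ranged from 1 to 20 without 1 library. Other alternatives moved each count by at most 1.5 times, and the causes were not tested.

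None of the 45 genes changed sign in any alternative. Among 4218 values of the 169 named genes under all settings, 8 changed sign. They were Cp1 at -0.0691 with library totals alone, S-Lap2 at -0.149 in batch 2 alone, Act79B at -0.0832 with isolated females by replicate 0 alone, bam at 0.667 with limma-voom, and bam and Dro on leaving out 1 library, where they ranged from -5.68 to 4.73 and from -1.04 to 0.471. The change from replicate 2 to replicate 1 correlated between groups at -0.186 to 0.273. With 1 such change per group, these values cannot settle whether replicate numbers pair the libraries beyond batch. The replicate block gave 71 differences between the sexes, 400 female calls and 9 male calls. Isolated female replicates 1 and 2 hold the fewest counts, which limits the precision of low genes in them.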

Other observations

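Yolk proteins, made by female fat body and ovary, leaned towards the female response without a call. Yp1, Yp2 and Yp3 had differences of 1.33 (SE 0.58), 1.89 (SE 0.55) and 1.58 (SE 0.47), and fit, a female-enriched gene of the head fat body, 1.36 (SE 0.41), with edgeR adjusted p of 0.633, 0.256, 0.253 and 0.274. Yp2 had 5703, 10360 and 8864 CPM in isolated females against 1622, 2551 and 3514 CPM in group-housed females, without overlap, and 51.9 to 197.3 CPM across males. Of 7 tested genes of this list 4 were positive at an unadjusted p under 0.05, against 472 of 9810 over all genes, and the list's median was 1.33. With library totals alone 2 were positive and 1 negative.

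The list of hemocyte and basement membrane genes, which does not hold the called gene Ndg, had no call among 23 tested. At an unadjusted p under 0.05, 8 of the 23 were positive, against 472 of 9810 over all genes, and the list's median was 0.41. With library totals alone 2 were positive and 1 negative, and in batch 2 alone 3 of 22 were positive. The lowest edgeR adjusted p on this list was that of Glt (glutactin), at 0.0655 with a difference of 1.14 (SE 0.25). The collagen gene Col4a1 had a difference of 0.64 (SE 0.29). Among 14 sex determination and dosage compensation genes none passed. At an unadjusted p under 0.05, 2 were positive and 3 negative, against 472 and 248 of 9810 over all genes. LManI and LManII, lysosomal mannosidases on the midgut list, had differences of 0.92 and 0.93 with edgeR adjusted p of 0.0951 and 0.0932. Outside the gene rows, 428 other features of the table were tested, 0 passed in edgeR and 11 had an unadjusted p under 0.05.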
